A study of Rattus norvegicus with 12 samples.

Results

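The genes described here are 41 listed rat genes of the interferon response, chosen by name and by no value in the files: receptor chains, the transcription factors behind them, nucleic acid sensors, the ISG15 system, antiviral effectors and a few interferon-induced genes of less settled role. Of these, 38 had a transcript in the files, out of 17379 genes and unnamed transcripts in all; expression of Ifnar2, Ifi44l and Xaf1 was not analysed here. RNA was sequenced in 12 libraries from male SAS Fischer rats of 200 to 225 g, in 4 groups of 3. The nonunion, delayed and normal groups are hematoma from femoral defects of 5.0 mm, 1.5 mm and 0.5 mm, whose labels name them as not healing, healing late and healing normally. The preOP group is healthy femur, removed at surgery where 5.0 mm defects were made, with no treatment named. The comparisons ask how the hematoma differs between defects with different outcomes and from healthy femur. The labels give no time of collection, and nothing in them ties libraries to animals, so preOP and nonunion may share some, and p-values measure only the spread between these samples, which may be technical.

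Interferons are secreted proteins, and cells release those of type I when they sense foreign or misplaced nucleic acid. Type I interferons bind a receptor of Ifnar1 and Ifnar2 chains, and the signal reaches DNA as a complex that holds Stat2 and Irf9 and binds a repeat of GAAA letters in the promoters of interferon-stimulated genes. Interferon gamma binds a separate receptor of Ifngr1 and Ifngr2 chains. In marrow and bone these signals are known to act on blood-forming cells, macrophages and the osteoclast lineage.

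Levels within a gene are given as CPM, read counts over library size, with library sizes scaled by TMM. Each comparison used edgeR's quasi-likelihood test, with p adjusted over all genes tested by the Benjamini-Hochberg method, and a gene is called when the adjusted p is below 0.05; calls by DESeq2, used as an alternative, are named as such. All 38 members passed the filter on low counts in both fits. Totals ran from 16808993 to 24325162 estimated reads per library. Some libraries stand apart. Ribosomal RNA took 72.24% of reads in nonunion 2 and at most 1.75% elsewhere. Muscle markers took 5.36% of reads in delayed 2, against at most 0.716% in the other hematomas. Called and non-overlapping counts over all members and over the pathway lists are therefore also given without both. The normal files also differ in form: between 16.82% and 18.1% of their estimated counts carry decimals, against 100% in the other groups. That difference and the normal group cannot be told apart. Erythroid markers summed to 1194 to 1689 CPM in nonunion, 2532 to 24127 CPM in delayed and 2296 to 6433 CPM in normal hematomas, against 133615 to 236899 CPM in preOP.

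**Figure D1:**
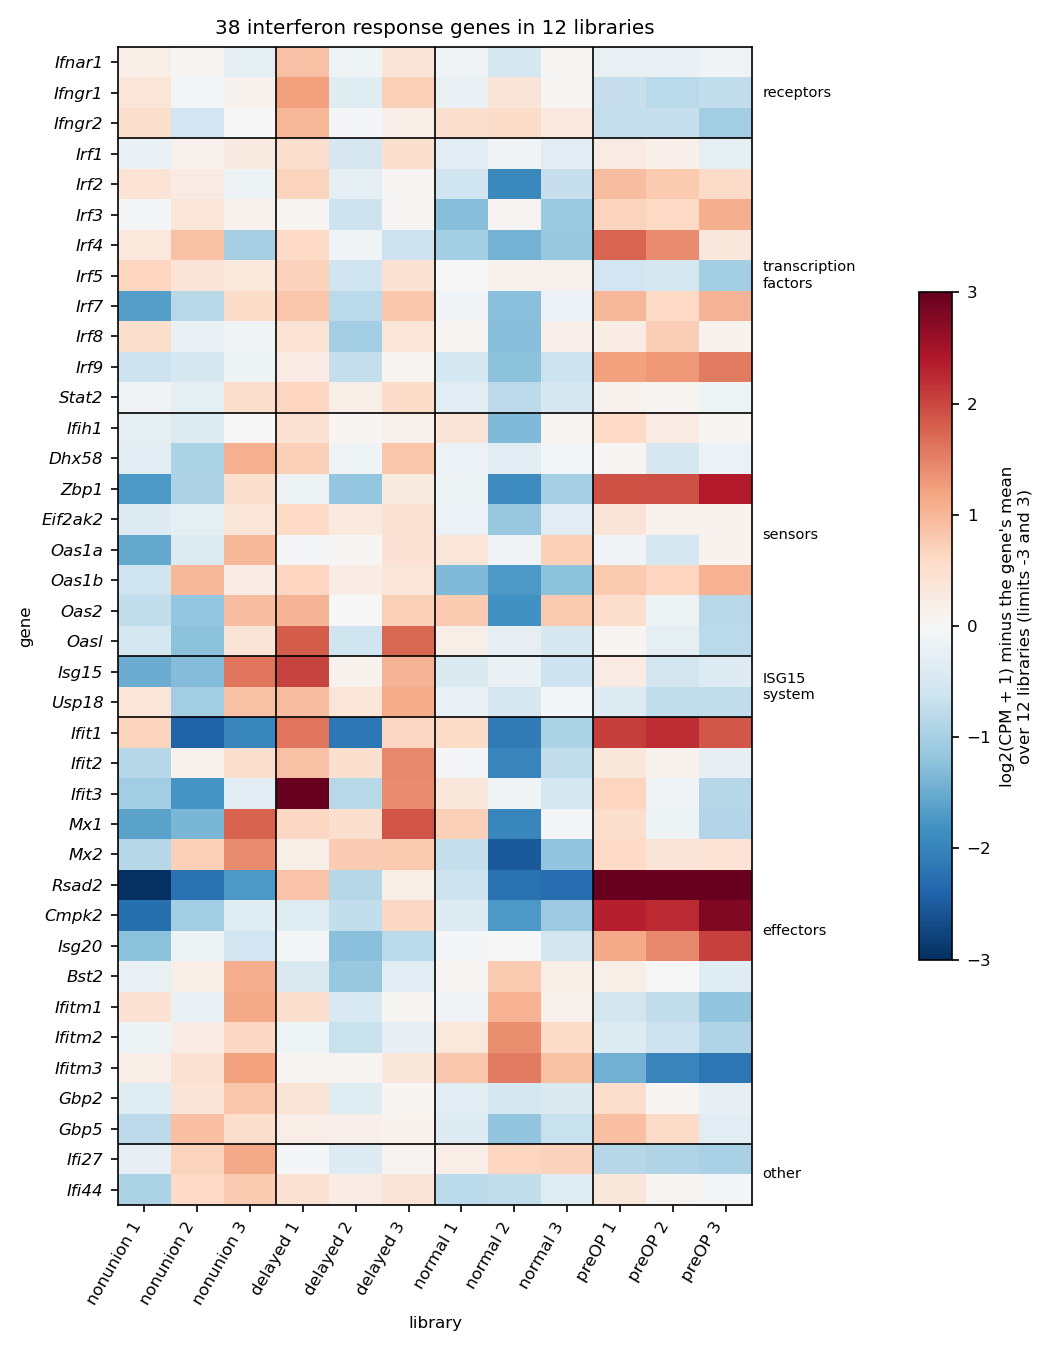
Each cell gives log2(CPM + 1) of 1 gene in 1 library minus that gene's mean over the 12 libraries, with genes ordered by role and libraries by group (columns). Rsad2, Cmpk2, Isg20, Zbp1 and Irf9 are high in all 3 preOP libraries and Ifitm3 is low there, while within the hematomas many rows change between libraries of 1 group.

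Against preOP femur, the members did not move as one block. Of the 38, nonunion hematoma had 4 called higher and 5 lower, where 28.4% of all genes tested were called (13.5% higher and 14.9% lower). In delayed hematoma 5 members were higher and 5 were lower, where 28.2% of all genes were called (12.6% higher and 15.6% lower). Normal hematoma had 5 higher and 11 lower, where the share of all genes was 42.6% (20.5% higher and 22.1% lower). The members' own shares of calls were 23.7% in nonunion, 26.3% in delayed and 42.1% in normal, each close to its background. DESeq2 called 13 members in nonunion, 14 in delayed and 19 in normal, beside 32.3%, 32.4% and 44.7% of the genes to which it gave an adjusted p. The nucleotide enzymes Rsad2 and Cmpk2, the exonuclease Isg20, the sensor Zbp1 and the transcription factor Irf9 were called lower in each hematoma group, and the entry blocker Ifitm3 was called higher in each. All 3 comparisons use the same preOP libraries. In bulk tissue, fewer cells of a type and less RNA per cell cannot be told apart.

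Among the receptors, both chains of the interferon gamma receptor stood higher in every hematoma library than in preOP, while the type I chain overlapped. Ifngr1, the ligand-binding chain, stood at 244, 186 and 203 CPM in nonunion, 445, 146 and 311 CPM in delayed, 162, 249 and 195 CPM in normal and 117, 108 and 114 CPM in preOP. All 9 hematoma libraries lay above the 3 preOP libraries. The difference passed the test in delayed (log2 fold change 1.41, SE 0.35, adjusted p = 0.0124) and missed it in nonunion (0.90, adjusted p = 0.0756) and normal (0.84, adjusted p = 0.0723). Ifngr2, the signalling chain, stood at 82.6, 37.6 and 57.7 CPM in nonunion, 114, 55.0 and 65.4 CPM in delayed, 79.9, 84.5 and 70.4 CPM in normal and 34.4, 35.1 and 27.1 CPM in preOP. Again no hematoma library reached down to the preOP level, and the call was made in delayed (1.28, SE 0.33) and normal (1.28, SE 0.33) but not in nonunion (0.88, adjusted p = 0.0656). Without preOP 3 the call in delayed was lost (adjusted p = 0.065). Ifnar1, the type I chain, stood at 171, 152 and 121 CPM in nonunion, 274, 136 and 194 CPM in delayed, 137, 102 and 151 CPM in normal and 126, 129 and 138 CPM in preOP. Its groups overlapped throughout, and its 3 log2 differences from preOP were 0.18 in nonunion, 0.62 in delayed and -0.01 in normal. Macrophages are a main target of interferon gamma. Their markers, with those of monocytes, summed to 2717 to 8663 CPM in nonunion, 3816 to 11507 CPM in delayed and 7317 to 7969 CPM in normal, against 2778 to 4823 CPM in preOP. Of 11 such markers tested, 5 were called higher in nonunion, 6 in delayed and 5 in normal; their part in the receptor result was not tested.

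Of 9 transcription factors, 1 rose and 1 fell in nonunion, and the same in delayed. In normal 0 rose and 4 fell. Called in either direction were 22.2%, 22.2% and 44.4% in nonunion, delayed and normal, beside 28.4%, 28.2% and 42.6% of all genes. Irf9, the DNA-binding subunit of the type I complex, stood at 35.2, 40.1 and 49.8 CPM in nonunion, 66.2, 33.7 and 59.0 CPM in delayed, 38.4, 23.4 and 35.2 CPM in normal and 133, 139 and 165 CPM in preOP. Its lowest preOP library was above every hematoma library, with log2 differences of -1.81 (SE 0.29) in nonunion, -1.46 (SE 0.29) in delayed and -2.17 (SE 0.30) in normal, each called in all 14 alternative analyses. Its partner Stat2 stood at 63.3, 56.7 and 99.0 CPM in nonunion, 107, 77.7 and 101 CPM in delayed, 53.4, 39.1 and 49.0 CPM in normal and 74.0, 71.8 and 62.1 CPM in preOP, with log2 differences of 0.08, 0.46 and -0.56 in nonunion, delayed and normal, none of them called. Irf5, which drives inflammatory cytokines in macrophages, went the other way at 67.4, 56.3 and 53.8 CPM in nonunion, 69.2, 27.9 and 57.6 CPM in delayed, 43.3, 46.3 and 46.5 CPM in normal and 28.5, 29.4 and 20.6 CPM in preOP. It rose in nonunion (1.18, SE 0.30) and in delayed (0.98, SE 0.30), although delayed 2 lay within the preOP range, and it missed the threshold in normal (0.79, adjusted p = 0.0534). The call in nonunion was lost without preOP 3 (adjusted p = 0.0648), and that in delayed without delayed 1, delayed 3 or any 1 preOP library (adjusted p up to 0.124).

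In normal hematoma Irf2, Irf3 and Irf4 were also called lower than in preOP, although edgeR called none of them between normal and another hematoma group; there DESeq2 called 1 of the 3, Irf4, higher in nonunion than in normal. Irf2, an antagonist of Irf1, stood at 31.8, 28.1 and 21.1 CPM in nonunion, 37.7, 19.3 and 24.1 CPM in delayed, 15.3, 5.39 and 14.1 CPM in normal and 45.8, 41.6 and 35.5 CPM in preOP. Irf3, which induces interferon beta once phosphorylated, stood at 67.0, 89.4 and 76.8 CPM in nonunion, 74.4, 44.8 and 72.0 CPM in delayed, 28.3, 74.0 and 32.0 CPM in normal and 112, 107 and 149 CPM in preOP. Irf4, a factor of lymphocytes and plasma cells, stood at 13.8, 20.8 and 4.92 CPM in nonunion, 17.0, 10.3 and 6.61 CPM in delayed, 4.81, 3.43 and 4.37 CPM in normal and 38.9, 31.0 and 14.1 CPM in preOP. For each of the 3, every normal library lay below every preOP library. The log2 differences of normal from preOP were -1.82 (SE 0.39) for Irf2, -1.45 (SE 0.37) for Irf3 and -2.73 (SE 0.57) for Irf4, and the call of Irf3 was lost without normal 3 (adjusted p = 0.0618). Nonunion hematoma had -0.60, -0.66 and -1.10 for the same genes and delayed hematoma -0.60, -0.94 and -1.31, none called. Markers of B lymphocytes and plasma cells, where Irf4 is high, summed to 22.4 to 146 CPM in nonunion, 35.0 to 41.3 CPM in delayed and 14.4 to 42.4 CPM in normal, against 225 to 344 CPM in preOP. Of 9 such markers tested, 7, 8 and 8 were called lower in nonunion, delayed and normal; Vpreb1b stood at 0 in nonunion, and their part in the Irf4 level was not tested. Irf7, the main inducer of interferon alpha genes, stood at 22.3, 40.7 and 108 CPM in nonunion, 129.8, 40.8 and 128 CPM in delayed, 68.5, 30.1 and 63.9 CPM in normal and 145, 109.6 and 149 CPM in preOP, and its differences from preOP of -1.24, -0.44 and -1.31 in nonunion, delayed and normal were not called. Irf1 and Irf8 had differences between -0.64 and 0.17 in these comparisons, also without a call.

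Of 8 sensors of nucleic acid, 1 fell in nonunion, 1 in delayed and 2 in normal, and 0 rose. As shares the falls were 12.5%, 12.5% and 25.0%, beside 14.9%, 15.6% and 22.1% of all genes called lower. Zbp1, which binds Z-form nucleic acid and can start cell death, stood at 1.54, 3.39 and 10.7 CPM in nonunion, 6.60, 2.78 and 9.20 CPM in delayed, 6.52, 1.29 and 3.24 CPM in normal and 30.6, 31.3 and 42.7 CPM in preOP. The highest hematoma library, nonunion 3, was still far below the lowest preOP library. Its log2 differences were -2.72 (SE 0.75) in nonunion, -2.49 (SE 0.74) in delayed and -3.24 (SE 0.77) in normal. The call in delayed was lost without any 1 library of delayed or preOP, or without delayed 2 and nonunion 2 together (adjusted p up to 0.0944). That in nonunion was lost without nonunion 1, nonunion 2 or any 1 preOP library (adjusted p up to 0.0676). Oas1b, of the oligoadenylate synthetase family, stood at 21.7, 67.4 and 38.7 CPM in nonunion, 52.6, 38.7 and 42.8 CPM in delayed, 12.6, 9.43 and 13.5 CPM in normal and 57.9, 52.5 and 69.7 CPM in preOP. The normal libraries were the low ones, and only the difference of normal from preOP was called among the 3 (-2.34, SE 0.37, adjusted p = 0.000758), with -0.50 in nonunion and -0.43 in delayed. Oas1a and Oas1b lie beside other Oas1 genes on chromosome 12. Reads may have been shared among these relatives, which was not tested. The RNA helicases Ifih1 and Dhx58, the kinase Eif2ak2, Oas1a, Oas2 and Oasl had no call against preOP, with log2 differences from -0.70 (Eif2ak2 in normal) to 1.68 (Oasl in delayed).

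In the ISG15 system, Usp18, the protease that removes ISG15 from proteins and dampens the type I receptor, stood at 33.1, 11.7 and 47.2 CPM in nonunion, 49.1, 32.9 and 56.4 CPM in delayed, 22.2, 17.6 and 24.3 CPM in normal and 19.2, 14.9 and 14.9 CPM in preOP. It rose in delayed (1.50, SE 0.42, adjusted p = 0.0214), a call lost without delayed 3, preOP 2 or preOP 3 (adjusted p up to 0.0792). Its differences of 0.92 in nonunion and 0.39 in normal were not called. Isg15 itself, a ubiquitin-like protein, stood at 6.05, 7.09 and 58.8 CPM in nonunion, 79.1, 20.3 and 39.1 CPM in delayed, 13.7, 16.2 and 11.9 CPM in normal and 22.6, 12.5 and 14.1 CPM in preOP. Nonunion 3 and delayed 1 were the high libraries and nonunion 1 and nonunion 2 the low ones, so the nonunion range enclosed all of preOP.

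The effectors held both the widest falls and the widest rise. Rsad2 encodes viperin, an enzyme that turns a nucleotide into a chain terminator for viral polymerases, and Cmpk2, its next protein-coding neighbour on chromosome 6, encodes a mitochondrial nucleotide kinase. Rsad2 stood at 2.73, 7.86 and 11.5 CPM in nonunion, 74.3, 22.1 and 45.7 CPM in delayed, 25.5, 7.84 and 7.48 CPM in normal and 635, 647 and 944 CPM in preOP. Every preOP library was several times above every hematoma library. Means were 7.36 ± 4.41 CPM in nonunion, 47.4 ± 26.2 CPM in delayed and 13.6 ± 10.3 CPM in normal, against 742 ± 175 CPM in preOP (SD, n = 3 each). The fitted level was 101-fold lower in nonunion (log2 -6.66, SE 0.78, adjusted p = 0.0003), 15.7-fold lower in delayed (-3.97, SE 0.69) and 54.5-fold lower in normal (-5.77, SE 0.75). Cmpk2 stood at 2.85, 8.02 and 13.3 CPM in nonunion, 13.2, 10.004 and 27.1 CPM in delayed, 13.0, 4.59 and 7.62 CPM in normal and 91.1, 86.4 and 126 CPM in preOP. It had the same gap between preOP and hematoma, with log2 differences of -3.65 (SE 0.61) in nonunion, -2.59 (SE 0.58) in delayed and -3.59 (SE 0.61) in normal. Isg20, a 3′ to 5′ exonuclease of RNA, stood at 1.98, 5.24 and 3.72 CPM in nonunion, 5.79, 1.91 and 2.98 CPM in delayed, 5.76, 5.999 and 3.79 CPM in normal and 14.3, 18.1 and 28.1 CPM in preOP. It was low in all hematomas, at -2.49 (SE 0.51), -2.50 (SE 0.50) and -1.96 (SE 0.49) in nonunion, delayed and normal, and the call in normal was lost without normal 3 (adjusted p = 0.0536).

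Promoter sequences are shown because Rsad2 and Cmpk2 lie side by side and moved together, and because members that moved in opposite directions carry the same letters. RefSeq promoter windows (GRCr8, 250 bases before to 50 after the start) were matched for 31 of the 41 genes, Ifnar2, Ifi44l and Xaf1 among them. The interferon-response letters GAAA-NN-GAAA, searched on both strands with overlapping matches counted, stood in 17 of the 31 (54.8%) and in 1034 of 27457 rat promoters in the same table (3.77%). By role they stood in 0 of 4 receptors, 1 of 8 transcription factors (Irf7), 4 of 5 sensors, 8 of 10 effectors and 4 of 4 interferon-induced genes of less settled role, with 0 promoters matched for the ISG15 system. The interferon gamma letters TTCNNNGAA stood in 9 of 31 (29.0%) and in 2382 of all promoters (8.68%). Capitals below mark GAAA-NN-GAAA or its reverse complement, and each line reads 5′ to 3′ along the gene's own strand. Rsad2 (minus strand, chr6:48788238-48788287), Isg20 (plus strand, chr1:142239947-142239996), Ifitm3 (minus strand, chr1:205541773-205541822) and Ifit3 (plus strand, chr1:241527262-241527311) each hold 1 match, Oas1b (minus strand, chr12:41395876-41395931) holds 2 that overlap, and the window of Cmpk2 (plus strand, chr6:48802770-48802849) holds 0, of which the 80 bases before its start are given.
Rsad2: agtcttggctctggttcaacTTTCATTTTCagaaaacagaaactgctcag
Isg20: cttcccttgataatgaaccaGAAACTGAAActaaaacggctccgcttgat
Ifitm3: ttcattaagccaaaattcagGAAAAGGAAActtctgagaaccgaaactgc
Ifit3: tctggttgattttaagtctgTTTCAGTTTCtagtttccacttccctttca
Oas1b: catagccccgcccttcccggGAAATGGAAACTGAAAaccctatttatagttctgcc
Cmpk2: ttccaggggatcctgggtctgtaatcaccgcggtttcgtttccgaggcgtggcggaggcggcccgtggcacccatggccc

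A match describes letters only. Rsad2 and Isg20, which fell in every hematoma group, and Ifitm3, which rose in every one, all hold the letters. Cmpk2 and Irf9, which also fell in every group, do not hold them in their windows. No promoter was matched for Zbp1.

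The Ifitm genes encode small membrane proteins that stop viruses from fusing with the cell, and Ifitm2, Ifitm1 and Ifitm3 lie side by side on chromosome 1. Ifitm3 stood at 167, 200.2 and 340.4 CPM in nonunion, 151, 154 and 186 CPM in delayed, 256, 435 and 269.5 CPM in normal and 53.2, 36.4 and 31.8 CPM in preOP. The lowest hematoma library was well above the highest preOP library, with log2 rises of 2.54 (SE 0.35) in nonunion, 2.02 (SE 0.34) in delayed and 2.98 (SE 0.35) in normal. Ifitm1 stood at 216, 137 and 356 CPM in nonunion, 227, 118 and 166 CPM in delayed, 149, 332 and 174 CPM in normal and 110.1, 96.5 and 70.7 CPM in preOP. It rose in nonunion (1.36, adjusted p = 0.0327) and normal (1.24, adjusted p = 0.0339) and missed the threshold in delayed (0.88, adjusted p = 0.14). Leaving out nonunion 3 or any 1 preOP library ended the call in nonunion (adjusted p up to 0.122). In normal, leaving out normal 2 or any 1 preOP library, or using effective lengths as offsets, ended the call (adjusted p up to 0.147). Ifitm2 stood at 169, 217 and 288 CPM in nonunion, 170.3, 117 and 157 CPM in delayed, 232, 495 and 281 CPM in normal and 142, 120.4 and 99.5 CPM in preOP. Only its rise in normal was called (1.48, SE 0.33), beside 0.90 in nonunion and 0.30 in delayed. These neighbours are alike in sequence, so reads may have been shared among them. Ifi27, a mitochondrial protein of less settled role, stood at 169, 319 and 441 CPM in nonunion, 191, 154 and 213 CPM in delayed, 229, 311 and 325 CPM in normal and 111, 106 and 102 CPM in preOP. It rose in nonunion (1.54, SE 0.32) and normal (1.44, SE 0.32), and the delayed libraries, although all above preOP, missed the threshold (0.81, adjusted p = 0.0831).

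Per kilobase of effective length, which allows genes to be compared, the order of the members changed between femur and hematoma. Rsad2 was the second most abundant of the 38 in preOP at 218 CPM per kilobase, and ranked 38 in nonunion (2.16), 28 in delayed (14.0) and 33 in normal (3.95). Ifitm3 ranked 1 in nonunion (603 CPM per kilobase), delayed (447) and normal (728), and 7 in preOP (104). Ifitm1, Ifitm2 and Ifi27 were among the 4 highest in every group.

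**Figure D2:**
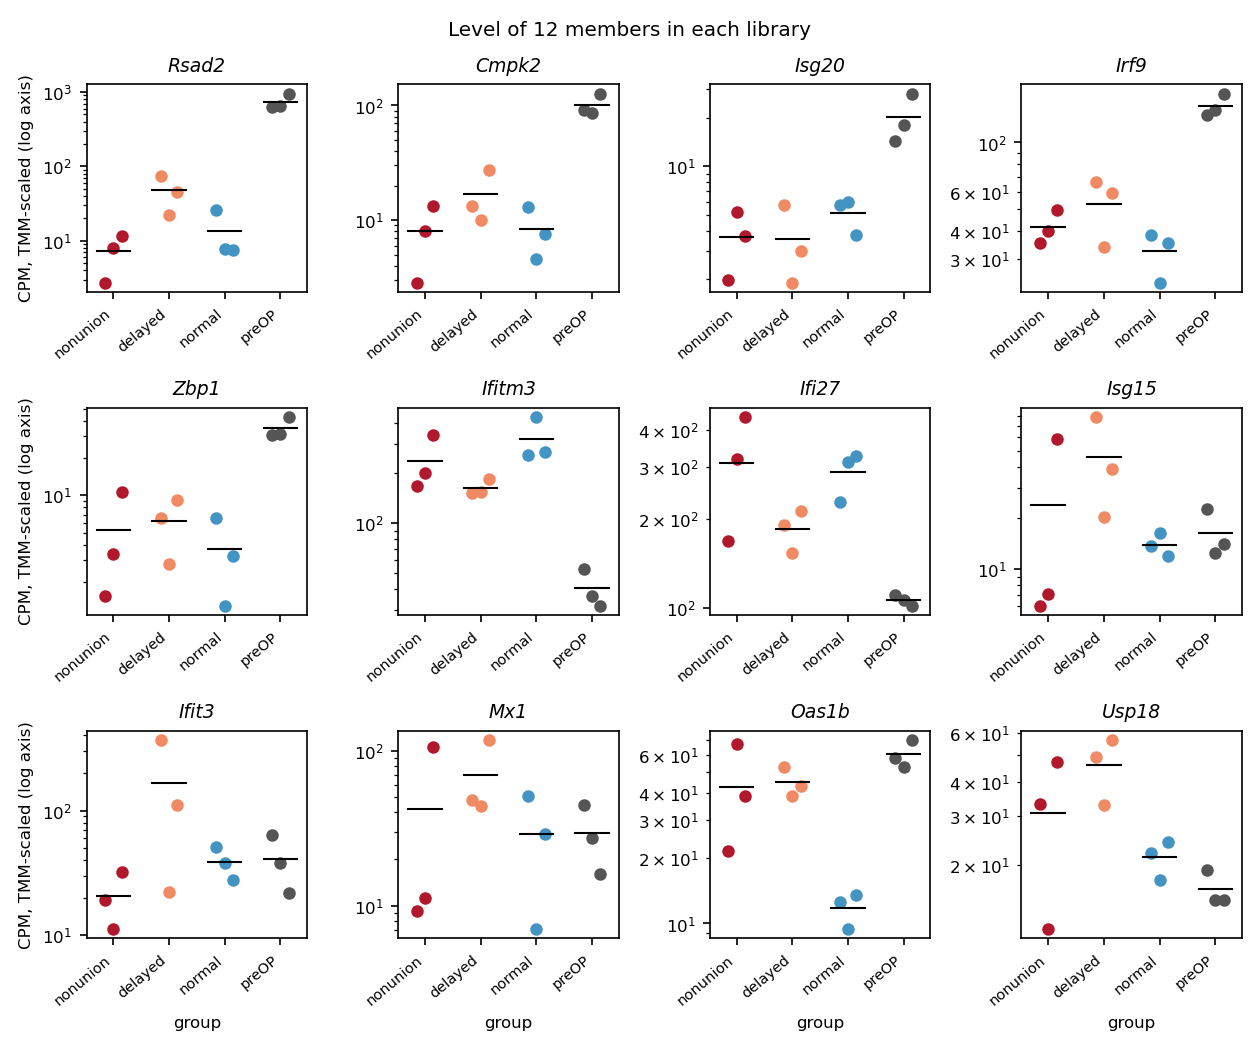
Points are single libraries and lines are group means of CPM on a log axis, for 12 members in nonunion, delayed, normal and preOP. Rsad2, Cmpk2, Isg20, Irf9 and Zbp1 separate preOP above and Ifitm3 and Ifi27 separate it below all hematomas, whereas Isg15, Ifit3 and Mx1 spread widely inside nonunion or delayed.

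Among the other effectors, Mx2, a dynamin-like GTPase, stood at 18.8, 58.1 and 95.9 CPM in nonunion, 39.9, 60.4 and 61.5 CPM in delayed, 20.9, 5.26 and 14.9 CPM in normal and 54.0, 46.2 and 47.2 CPM in preOP. The normal libraries were all below preOP (-1.84, adjusted p = 0.0222, lost without normal 2, normal 3, preOP 1 or preOP 2, with adjusted p up to 0.0681), while nonunion and delayed enclosed the preOP values. Gbp5, a guanylate-binding GTPase that helps assemble inflammasomes, stood at 4.67, 17.3 and 13.2 CPM in nonunion, 10.3, 9.95 and 9.60 CPM in delayed, 6.47, 3.31 and 5.18 CPM in normal and 17.2, 13.5 and 6.72 CPM in preOP and was called lower in normal (-1.32, adjusted p = 0.0485), a call that was lost in 10 of 14 alternative analyses. Ifit1, which binds RNA that lacks a methylated cap, stood at 22.1, 1.70 and 2.73 CPM in nonunion, 43.5, 2.22 and 21.3 CPM in delayed, 20.9, 2.39 and 6.58 CPM in normal and 60.4, 66.4 and 52.0 CPM in preOP. All 9 hematoma libraries lay below preOP, while its log2 differences of -2.73 in nonunion (SE 1.14, adjusted p = 0.0991), -1.41 in delayed and -2.58 in normal were not called. Bst2, which tethers budding virus to the cell, stood at 56.9, 75.7 and 142 CPM in nonunion, 49.1, 29.7 and 53.5 CPM in delayed, 68.0, 114 and 75.9 CPM in normal and 75.6, 65.5 and 51.3 CPM in preOP, with no call in any comparison. Ifit2, Ifit3, Mx1, Gbp2 and Ifi44 also had none against preOP, with log2 differences from -0.97 (Ifit3 in nonunion) to 2.02 (Ifit3 in delayed).

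**Figure D3:**
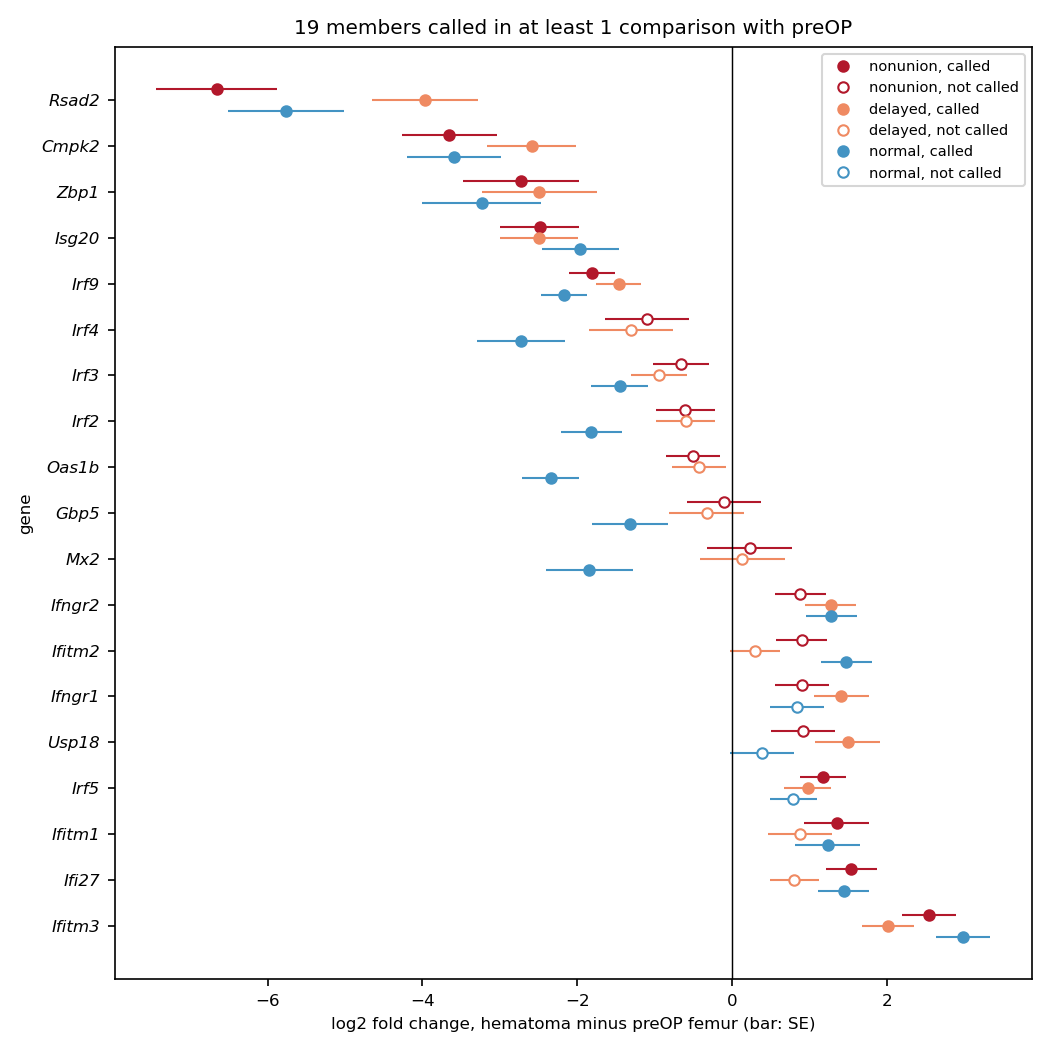
Log2 fold change against preOP for the 19 members called in at least 1 of the 3 comparisons (rows), in nonunion, delayed and normal hematoma, with standard error bars; filled points are called and open points are not. Rsad2 lies furthest left and Ifitm3 furthest right in each group, and only Rsad2, Cmpk2, Zbp1, Isg20, Irf9 and Ifitm3 are filled in all 3.

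Markers of marrow cells also differed between femur and hematoma, to an unequal degree by cell type and group. Markers of neutrophil granule precursors summed to 6.04 to 16.6 CPM in nonunion, 11.5 to 73.6 CPM in delayed and 331 to 2308 CPM in normal, against 3823 to 4444 CPM in preOP, with 7, 7 and 4 of 8 tested called lower in nonunion, delayed and normal. Mature neutrophil markers summed to 77.8 to 827 CPM in nonunion, 108 to 1429.8 CPM in delayed and 1507 to 9339 CPM in normal, against 7702 to 10124 CPM in preOP. Plasmacytoid dendritic cell markers, from the cell type known for the highest type I interferon output, summed to 80.0 to 130.0 CPM in nonunion, 69.9 to 148 CPM in delayed and 103 to 166 CPM in normal, against 161 to 258 CPM in preOP. Apart from Vpreb1b among the B cell markers and Lep among the adipocyte markers, no measured marker of the 12 lists stood at 0 in a whole group. Of 9 mature neutrophil markers tested, 4 were called lower in nonunion, 3 in delayed and 0 in normal. Of 6 plasmacytoid dendritic cell markers tested, 1 was called higher and 1 lower in nonunion, and the same in normal. In delayed 0 of them were called higher and 1 lower. The sums of both lists overlapped between normal and preOP. The part of these cells in the falls of Rsad2, Cmpk2, Isg20, Zbp1 and Irf9 was not tested.

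Without delayed 2 and nonunion 2, the members called against preOP numbered 8 higher (21.1%) and 6 lower (15.8%) in nonunion, beside 22.0% and 19.6% of all genes. In delayed they numbered 14 higher (36.8%) and 4 lower (10.5%), beside 21.1% and 20.5% of all genes. In normal they numbered 7 higher (18.4%) and 12 lower (31.6%), beside 30.1% and 28.0%. Delayed 2 was the lowest delayed library for 33 of the 38 members, so leaving it out raises the delayed mean for most of them. Rsad2, Cmpk2, Isg20 and Irf9 stayed lower and Ifitm3 stayed higher in all 3 groups. Leaving out delayed 2 alone gave 16 members called in delayed, and leaving out preOP 3 alone gave 6. The share of all genes in these settings is not given here, so these counts do not describe the members apart from all genes.

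Between hematomas, few or none of the members were called by edgeR. Delayed against normal had 1 member called higher by edgeR, Oas1b, and 0 lower, where 7.13% of all genes were called (2.68% higher and 4.45% lower). DESeq2 called 7, the higher Stat2, Eif2ak2, Oas1b, Ifit2, Ifit3 and Mx2 and the lower Ifitm2, beside 15.1% of the genes to which it gave an adjusted p. Still, 30 of the 38 fold changes were above 0, with a median log2 difference of 0.73, against 0.02 over all genes tested. Libraries of delayed and normal did not overlap for 11 members that were higher and 4 that were lower, beside 16.1% and 20.4% of all genes. Without delayed 2 and nonunion 2, 31 fold changes were above 0, with a median of 1.07 against -0.02 over all genes, and libraries did not overlap for 26 members that were higher and 4 that were lower, beside 23.3% and 30.5% of all genes. Because delayed 2 was the lowest delayed library for 33 of the 38, leaving it out raises most of these differences. The Oas1b level, given above, was 44.7 ± 7.14 CPM in delayed and 11.8 ± 2.14 CPM in normal (SD, n = 3 each), a log2 difference of 1.89 (SE 0.41, adjusted p = 0.0302). Leaving out 1 normal library, delayed 1 or delayed 3 ended this call, with adjusted p of at most 0.0968 over all alternatives.

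The other members with no overlap that stood higher in delayed were Irf2, Irf4, Stat2, Eif2ak2, Isg15, Usp18, Ifit2, Mx2, Gbp5 and Ifi44, and those that stood lower were Bst2, Ifitm2, Ifitm3 and Ifi27. edgeR called none of these, and DESeq2 called 5 of them: Stat2, Eif2ak2, Ifit2, Mx2 and Ifitm2. Ifit2, an RNA-binding relative of Ifit1, stood at 90.0, 67.6 and 133 CPM in delayed and 46.8, 11.6 and 28.4 CPM in normal (log2 1.71, SE 0.56, adjusted p = 0.0988). Eif2ak2, the kinase that halts translation on double-stranded RNA, stood at 129, 106 and 117 CPM in delayed and 75.7, 38.5 and 67.7 CPM in normal (0.92, adjusted p = 0.135). Stat2 had the lowest edgeR adjusted p among the higher members that edgeR did not call, 0.0798, at 1.00 (SE 0.30). Ifitm2 had the lowest among the lower ones, 0.0794, at -1.17 (SE 0.35).

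Without delayed 2 and nonunion 2, delayed against normal had 8 members called, all higher: Ifngr1, Irf1, Irf9, Stat2, Oas1b, Oasl, Usp18 and Ifit3. The share of all genes called higher was then 7.69%, and 16.4% were called in either direction. Delayed then had fewer libraries, without the library that was its lowest for 33 of the 38 members. Its removal by itself raises most of these differences. Ifit3, a partner of Ifit1 in binding RNA, stood at 365, 22.3 and 111 CPM in delayed and 51.2, 37.7 and 27.9 CPM in normal. Delayed 1 and delayed 3 were high and delayed 2 was below every normal library. Oasl, a synthetase-like protein that boosts RNA sensing in human cells, stood at 64.5, 11.3 and 60.7 CPM in delayed and 19.9, 14.8 and 12.3 CPM in normal, with the same split. The log2 difference of Ifit3 was 2.09 (SE 0.84) with all libraries and 2.68 (SE 0.50) without delayed 2 and nonunion 2, and that of Oasl was 1.54 (SE 0.66) and 2.08 (SE 0.34).

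**Figure D4:**
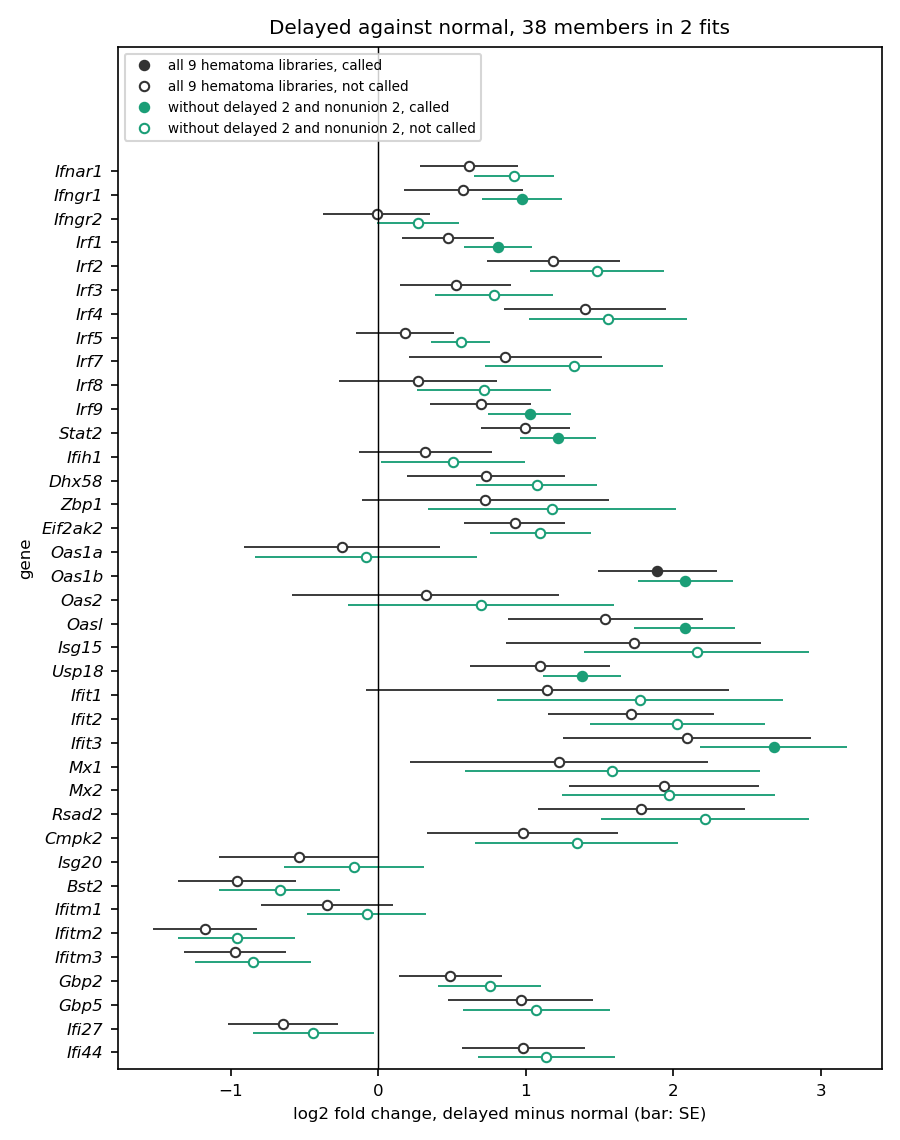
Log2 fold change of delayed against normal hematoma with standard error bars for 38 members, in the fit of all 9 hematoma libraries (dark) and in the fit without delayed 2 and nonunion 2 (green); filled points are called. With all libraries only Oas1b is called, and in the smaller fit 8 members are. Delayed 2 was the lowest delayed library for 33 of the 38, so the smaller fit raises most differences.

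Osteoblast markers, which also separated these groups, summed to 4177 to 15486 CPM in delayed against 18318 to 27489 CPM in normal, and neutrophil granule precursor markers to 11.5 to 73.6 CPM in delayed against 331 to 2308 CPM in normal. Of 8 osteoblast markers 7 were called lower in delayed, and of 7 granule precursor markers 4. Their part in the members' differences was not tested.

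Nonunion against normal had 0 members called by edgeR, where 2.37% of all genes were called (0.890% higher and 1.48% lower). With an unadjusted p below 0.05 there were 5 members, beside 20.5% of all genes. DESeq2 called 3, the higher Irf4, Oas1b and Mx2, beside 9.60% of the genes to which it gave an adjusted p. The median log2 difference of the members was 0.26, against -0.03 over all genes. Libraries did not overlap for Irf2, Irf4, Irf5, Stat2 and Oas1b, all higher in nonunion, and for 0 members lower, beside 14.1% and 15.5% of all genes. Oas1b came closest, at 21.7, 67.4 and 38.7 CPM in nonunion against 12.6, 9.43 and 13.5 CPM in normal (1.76, SE 0.40, adjusted p = 0.0571). Irf4 stood at 13.8, 20.8 and 4.92 CPM in nonunion against 4.81, 3.43 and 4.37 CPM in normal (1.56, SE 0.56, adjusted p = 0.161). Without delayed 2 and nonunion 2 the edgeR count stayed at 0, where 3.40% of all genes were called. The median was then 0.41, against 0.02 over all genes, and libraries did not overlap for 6 members that were higher and 1 that was lower, beside 19.3% and 20.7% of all genes.

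Nonunion against delayed had 0 members called by edgeR, and 0.00% of all genes. An unadjusted p below 0.05 was met by 4 members and 7.06% of all genes. DESeq2 called 2 members, the lower Ifit3 and Rsad2, beside 1.34% of the genes to which it gave an adjusted p. Fold changes were below 0 for 27 of 38 members, with a median of -0.35, against -0.05 over all genes. Libraries did not overlap for Rsad2 and Ifih1, lower in nonunion, beside 3.32% of all genes, and for Bst2, which was higher, beside 5.60%. Rsad2 stood at 2.73, 7.86 and 11.5 CPM in nonunion and 74.3, 22.1 and 45.7 CPM in delayed. Each nonunion library was below each delayed library, with a log2 difference of -2.75 (SE 0.73, adjusted p = 0.432). Ifit3 stood at 19.3, 11.3 and 32.0 CPM in nonunion and 365, 22.3 and 111 CPM in delayed (-3.05, SE 0.87, adjusted p = 0.469), and nonunion 3 reached above delayed 2. Bst2 had 56.9, 75.7 and 142 CPM in nonunion and 49.1, 29.7 and 53.5 CPM in delayed (1.00, adjusted p = 0.663). DESeq2 gave log2 differences of -3.04 for Ifit3 (adjusted p = 0.0188) and -2.74 for Rsad2 (adjusted p = 0.0156). Without delayed 2 and nonunion 2 the edgeR count stayed at 0, where 0.475% of all genes were called. Fold changes were then below 0 for 31 members, with a median of -0.43 against -0.01 over all genes, and libraries did not overlap for 14 members that were lower and 1 that was higher, beside 2268 and 3662 of the 12627 genes then tested. Delayed 2, left out here, was the lowest delayed library for 33 of the 38.

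Inside nonunion the members varied more widely than all genes, and most of them were highest in the same library. In delayed and normal their spread was nearer to that of all genes. Over the 26 sensors, ISG15 genes, effectors and other interferon-induced members, the ratio of highest to lowest library had a median of 3.41 in nonunion, 1.86 in delayed, 1.91 in normal and 1.48 in preOP, beside 1.94, 1.83, 1.72 and 1.33 over the 12856 genes tested. Nonunion 3 was the highest library of its group for 22 of the 26, and nonunion 1 the lowest for 18. Over all genes, nonunion 3 was highest for 26.3% and nonunion 1 lowest for 31.0%. In delayed, delayed 2 was the lowest for 22 and the highest for 0, beside 42.5% and 41.6% of all genes.

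Mx1, a GTPase that traps viral nucleocapsids, had 9.33, 11.3 and 106 CPM in the nonunion libraries, an 11.3-fold range. Oas1a had 1.94, 5.39 and 16.0 CPM and Isg15 6.05, 7.09 and 58.8 CPM in nonunion, each with nonunion 3 on top. Ifit1 went against them, with 22.1, 1.70 and 2.73 CPM in nonunion, and was highest in nonunion 1. In delayed, Ifit1 ranged 19.6-fold and Ifit3 16.4-fold, both highest in delayed 1 and lowest in delayed 2. Mx1 counts join 6 transcripts of 1 gene, and the ratio above is over their sum.

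Relative to each gene's mean over the 9 hematoma libraries, the median of the 26 members was -0.65, -0.24 and 0.66 in nonunion 1, 2 and 3 on the log2(CPM + 1) scale. It was 0.55, -0.04 and 0.64 in delayed 1, 2 and 3, and 0.03, -0.70 and -0.27 in normal 1, 2 and 3. All 3 groups overlap on this measure: nonunion 3 reached the level of delayed 1 and 3, and nonunion 1 that of normal 2. Medians of all genes stayed between -0.06 and 0.01 in the same libraries.

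**Figure D5:**
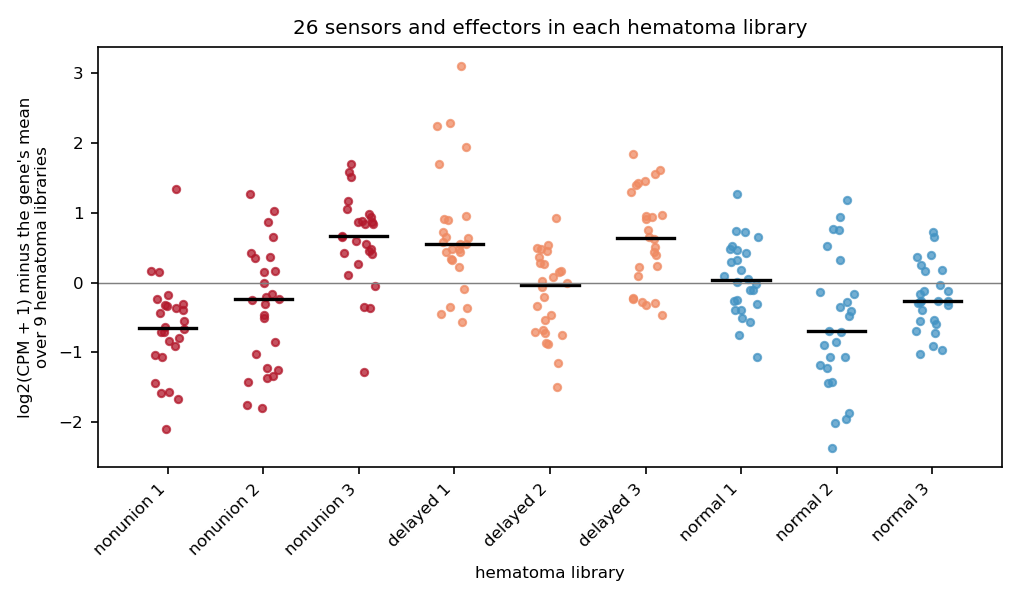
Log2(CPM + 1) of 26 sensors, ISG15 genes, effectors and other induced members minus each gene's mean over the 9 hematoma libraries (points), by library, with the median of the 26 as a line. Nonunion 3, delayed 1 and delayed 3 lie highest, with medians from 0.55 to 0.66, and nonunion 1 and normal 2 lowest, at -0.65 and -0.70.

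Interferon transcripts themselves were close to the detection limit. Ifna2 had 25 reads over the 12 libraries, 13 of them in delayed 1, 1 in all of nonunion and 0 in normal. Ifnb1, encoding interferon beta, had 11 reads, 10 of them in delayed 1. Ifna4 had 12 reads, Ifnk 7, Ifna5 2 and Ifng 2, and no ligand passed the filter on low counts. A count of 0 allows up to 3 reads, which is 0.115 to 0.462 CPM by library, for counting error only. Delayed 1, with most of the Ifna2 and Ifnb1 reads, was the highest delayed library for 15 of the 26 members. It was the highest for 32.5% of all genes. The median of the 26 was 0.55 there, as given above. It was 0.64 in delayed 3, with 2 reads of Ifna2 and 0 of Ifnb1. In nonunion 3, with 0 reads of both, it was 0.66. Any link between ligand reads and member levels was not tested.

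Other genes of the pathway were counted from lists of 13 signalling genes, 10 genes of sensing and induction and 40 other interferon-stimulated genes. In delayed against normal, 0 signalling genes rose and 1 fell, 1 sensing gene rose, and 3 other interferon-stimulated genes rose, beside 2.68% of all genes called higher and 4.45% lower. With delayed 2 and nonunion 2 left out, 2 signalling genes rose and 1 fell, 2 sensing genes rose and 6 other interferon-stimulated genes rose, beside 7.69% higher and 8.75% lower. The faller was Socs1, the feedback inhibitor of the receptor kinases, at 0.959, 0.103 and 0.968 CPM in delayed and 13.3, 9.06 and 9.15 CPM in normal (-3.93, SE 0.74, adjusted p = 0.0207). In every normal library it was several times above every other library of the study, with 1.27, 1.54 and 0.827 CPM in nonunion and 0.938, 1.27 and 1.66 CPM in preOP. Normal against preOP was also called (3.02, SE 0.64). Ikbke, a kinase that activates Irf3 and Irf7, stood at 189.7, 50.2 and 133 CPM in delayed and 22.1, 37.7 and 24.9 CPM in normal (2.15, SE 0.46). The RNA editing enzyme Adar (1.56), the nuclear body protein Sp100 (1.21) and the GTPase Igtp (1.02) were the 3 others. All 5 calls were lost when any 1 normal library, delayed 1 or delayed 3 was left out (adjusted p up to 0.131), and that of Igtp also without delayed 2.

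In nonunion against normal, 1 gene of these lists was called, the chemokine Cxcl9 at 4.10 (SE 0.78), and the call was lost without any 1 normal library, nonunion 2 or nonunion 3 (adjusted p up to 0.136). With delayed 2 and nonunion 2 left out, 1 signalling gene rose and 1 fell, 1 sensing gene rose and 3 other interferon-stimulated genes rose, beside 1.40% of all genes called higher and 2.00% lower. In nonunion against delayed, edgeR called 0 with or without these libraries. Against preOP, 3 signalling genes rose and 2 fell in nonunion, 4 rose and 0 fell in delayed, and 4 rose and 3 fell in normal. The shares of all genes were those given for the members: 13.5% higher and 14.9% lower in nonunion, 12.6% and 15.6% in delayed, and 20.5% and 22.1% in normal. Socs3, a feedback inhibitor induced mainly through Stat3, had 53.0, 6.78 and 18.2 CPM in nonunion, 32.9, 10.2 and 34.2 CPM in delayed, 25.7, 15.9 and 17.0 CPM in normal and 3.80, 4.77 and 3.58 CPM in preOP. It rose by 2.69 (SE 0.67) in nonunion, 2.67 (SE 0.67) in delayed and 2.27 (SE 0.66) in normal. These calls were lost without preOP 3 in all 3 groups, without nonunion 1 in nonunion, and without normal 1 or preOP 1 in normal (adjusted p up to 0.0619). Ifnlr1, the lambda interferon receptor, rose in nonunion (2.56) and delayed (3.19). Pias1, a SUMO ligase, fell in nonunion (-1.02) and normal (-1.11), as did the phosphatase Ptpn11 (-1.03 in nonunion and -1.29 in normal); in delayed, Il10rb (1.18) and Stat3 (0.98) also rose. In nonunion the call of Ptpn11 was lost without any 1 library of nonunion or preOP (adjusted p up to 0.105) and that of Pias1 without nonunion 3, preOP 1 or preOP 2 (adjusted p up to 0.115). The call of Il10rb was lost without preOP 3 (adjusted p = 0.0655).

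Of the 10 sensing genes, 0 were called in nonunion or delayed against preOP, and 3 fell in normal: the adaptor Mavs (-1.56), Ikbke (-1.41) and the kinase Tbk1 (-0.75). The call of Ikbke was lost without normal 1, normal 3, preOP 1 or preOP 2 (adjusted p up to 0.0918) and that of Tbk1 without preOP 1 or preOP 2 (adjusted p up to 0.0761). Of the 40 other interferon-stimulated genes, 3 rose and 2 fell in nonunion, 4 rose and 2 fell in delayed, and 1 rose and 8 fell in normal. As shares of the 40 called in either direction, 12.5% in nonunion and 22.5% in normal stood beside 28.4% and 42.6% of all genes. Cxcl9 rose in nonunion (3.63) and delayed (2.00), and Cxcl10, a chemokine for the same receptor, rose in delayed (3.42, SE 0.87). In delayed the call of Cxcl9 was lost in 7 of 14 alternative analyses, among them those without delayed 2, delayed 3 or any 1 preOP library (adjusted p up to 0.162), and that of Cxcl10 without delayed 3, preOP 2 or preOP 3 (adjusted p up to 0.0585). Oas1f, the neighbour of Oas1b, stood at 12.9, 84.2 and 10.7 CPM in nonunion, 18.8, 13.3 and 14.4 CPM in delayed, 2.76, 1.04 and 2.88 CPM in normal and 51.0, 48.3 and 44.7 CPM in preOP. It fell in normal (-4.42, SE 0.77), where its libraries were below all others, as those of Oas1b were. Adar (-1.99), Trim21 (-2.35) and Phf11 (-1.45) fell in normal too, and Adar fell in nonunion (-1.04). The call of Phf11 was lost without normal 2, normal 3, preOP 1 or preOP 2 (adjusted p up to 0.097), and that of Adar in nonunion in 9 of 14 alternatives, among them those without any 1 library of nonunion or preOP (adjusted p up to 0.154). Apol9a rose in delayed (2.06) and Lgals9, which encodes galectin-9, fell there (-1.14); Ifi27l2b (1.61) and Igtp (0.66) rose in nonunion. The call of Apol9a was lost without any 1 preOP library (adjusted p up to 0.0864), and that of Lgals9 in 7 of 14 alternatives, among them those without any 1 delayed library, preOP 1 or preOP 2 (adjusted p up to 0.177). That of Ifi27l2b was lost in 6, among them those without nonunion 3 or any 1 preOP library (adjusted p up to 0.231), and that of Igtp in 6, among them those without nonunion 3, preOP 2 or preOP 3 (adjusted p up to 0.172).

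When delayed 2 and nonunion 2 were left out, the pathway lists had these calls against preOP. Signalling genes numbered 4 higher and 3 lower in nonunion, 5 higher and 1 lower in delayed, and 4 higher and 3 lower in normal. Sensing genes numbered 1 higher and 2 lower in nonunion, 2 higher and 1 lower in delayed, and 1 higher and 3 lower in normal. The other interferon-stimulated genes numbered 6 higher and 1 lower in nonunion, 7 higher and 1 lower in delayed, and 4 higher and 9 lower in normal. All genes were then called more often, at 41.7% in nonunion, 41.6% in delayed and 58.1% in normal.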

How the data were processed

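RNA was extracted with Trizol and made into libraries with the Illumina TruSeq RNA kit, per the labels' protocols. Reads were processed with bcl2fastq 1.8.4, Trimmomatic and FastQC, then quantified with Salmon, with rn6 as the named build, per the submitters' processing notes. Each deposited file holds 1 library, with estimated counts (expected counts of reads, not scaled), TPM and effective lengths for 18321 RefSeq transcripts, per the file headers. The authors' deposited TPM served only to weight effective lengths when transcripts of a gene were joined.

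Estimated counts were rounded and summed by RefSeq symbol, which matched 17367 transcripts to 16425 symbols; 954 transcripts stayed as single features. The annotation and promoter tables are of GRCr8 and gave names, neighbours and promoters; no coordinate of the files was used. edgeR 4.0.16 in R 4.3.3 fitted quasi-likelihood models after TMM scaling and filterByExpr by group, without a replicate block: 9 hematoma libraries (12474 genes, 6 residual degrees of freedom) for comparisons among hematomas, and 12 libraries (12846 genes, 8 residual degrees of freedom) for those with preOP. Tests were two-sided. SE is the absolute log2 fold change over the square root of F. Errors of means are SD. Pairs of libraries with identical counts numbered 0. Alternatives used DESeq2 1.42.0, and the method was tested on simulated data. In nonunion against normal, genes altered by a factor of 2 were recovered in 0.0% of cases. At factors of 4 and 8 this share was 14.9% and 47.0%. In nonunion against preOP it was 3.0%, 37.3% and 77.3% at factors of 2, 4 and 8. In the simulation 66 or 67 genes were altered at each factor, while 3648 were called in nonunion against preOP. Recovery in the data may therefore differ from these shares. False calls made up 4.7% and 2.5% of calls in these comparisons. The 0 members called in nonunion against normal therefore do not show that members were equal there.

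All members are accounted for: those called at least once are given by library, as are the 3 most abundant of the others per length, and up to 4 called genes of each pathway list and comparison are named. Members outside that rule shown by library, such as Ifit1, Ifit2, Ifit3, Oasl, Mx1, Stat2, Eif2ak2, Oas1a and Ifnar1, were picked after their values were seen, as were the pathway genes shown by library. The members, lists and alternatives, including the one without delayed 2 and nonunion 2, were chosen with earlier results of these data known.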

Additional observations from a re-analysis of the deposited data

How the results depend on the processing

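Counts of called members were recomputed under 14 alternatives per comparison. For delayed against normal, 1 member with all libraries, the count was 0 with a replicate block, 7 with DESeq2, 2 in a fit of just these groups, 8 without delayed 2 and nonunion 2 together, and 0 to 3 when 1 library was left out. For nonunion against normal, 0 members, DESeq2 gave 3, and for nonunion against delayed, 0 members, DESeq2 gave 2; leaving out 1 library gave 0 to 0 in both. Against preOP, leaving out 1 library gave 6 to 12 members in nonunion, where 9 were called, 6 to 16 in delayed, where 10 were called, and 12 to 15 in normal, where 16 were called. Without delayed 2 and nonunion 2 together these counts were 14 in nonunion and 18 in delayed. The share of all genes called moved too. For delayed against preOP it was 28.2% with all libraries and 41.6% without delayed 2 and nonunion 2. For delayed against normal it was 7.13% and 16.4%. The counts therefore do not describe the members apart from all genes. Effective lengths as offsets, no ribosomal RNA, no filter on low counts and the size factors of DESeq2 left every count within 1.5 times its value. Calls held in every alternative for 6 of 9 members in nonunion, 6 of 10 in delayed and 11 of 16 in normal against preOP, and no called member changed sign. Same-numbered libraries were not related (correlations of -0.21 to 0.22), so the replicate block, which gave 9, 9 and 17 members in nonunion, delayed and normal against preOP, pairs samples by number only. Some scalings moved the median of all genes by over 0.1 on the log2 scale, most by 0.21 for delayed against preOP with only those groups in the fit. Nonunion 2 had the fewest reads outside ribosomal RNA, and its floor of 3 reads was 0.462 CPM, the highest of the 12 libraries.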
